A study of Mus musculus with 18 samples.

Results

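Colon epithelial cells that carry the green fluorescent protein (GFP) reporter of the Olfr78 gene were compared between mice with no intact copy of Olfr78 and mice with 1 intact copy. Of the 18 samples of the series, 4 enter the comparison, and each is a pool of sorted Epcam+ve/GFP+ve cells from the colon of 2 mice aged 4 to 7 months. The 2 heterozygous (HE) pools came from Olfr78GFP/+ mice and the 2 knockout (KO) pools from Olfr78GFP/GFP mice, both of the Olfr78-GFP line (strain B6;129P2-Or51e2tm1Mom/MomJ). In this line a GFP-IRES-tauLacZ cassette replaces the exon that codes for the receptor, so all 4 pools carry the cassette and the HE pools already lack 1 functional allele. GFP also selected the cells in both groups, from 1 reporter allele in the HE pools and from 2 in the KO pools. The genes described are the 11892 of 52636 in the table with more than 40 counts per 20000000 (CP20M) in each of the 4 pools. For scale, 2 samples of all Epcam+ve epithelial cells, labelled GFP-ve and taken from 1 wild-type (WT) mouse, are given beside some genes.

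Enteroendocrine cells (EECs) are rare hormone-secreting cells of the gut epithelium, which arise from crypt stem cells through progenitors marked by Neurog3 and then by Neurod1. Enterochromaffin (EC) cells are the EECs that make serotonin from tryptophan, while L cells release the peptides PYY and GLP-1. Olfr78 is an odorant receptor expressed outside the nose, and with Olfr558, Ffar2 and Ffar3 it belongs to the G protein-coupled receptors that respond to short-chain fatty acids (SCFAs), the products of bacterial fermentation in the colon.

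The libraries were shallow and uneven. The HE pools held 1738139 and 1499836 reads on genes, KO pool 1 held 532704 and KO pool 2 held 1721183. A single read is therefore worth 11.5 and 13.3 CP20M in the HE pools, 37.5 in KO pool 1 and 11.6 in KO pool 2. Of the genes tested, 5197 (43.7%) rested on fewer than 10 reads in KO pool 1. The filter of 40 CP20M meant at least 2 reads in KO pool 1 and at least 3 reads in each other pool, and 1434 genes were left out through KO pool 1 alone. The lowest value just inside the filter was 41 CP20M and the highest just outside it 38. The 2 KO pools were less alike than any pair of pools from different groups: 26.9% of the genes tested differed more than 2-fold between KO pools 1 and 2, against 11.2% between the HE pools and 12.8% to 21% between an HE and a KO pool. Loci with ribosomal RNA sequence took 17.59% and 23.07% of the reads in the HE pools, 32.35% in KO pool 1 and 19.13% in KO pool 2.

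All 4 pools expressed the defining EEC genes well above the Epcam+ve samples. The 7 enteroendocrine markers together took 3.7% and 4.86% of the reads on genes in the HE pools, 2.59% (95% Wilson interval 2.55 to 2.63) and 1.55% in the KO pools, but only 0.0581% and 0.0568% of those of Epcam+ve cells. The share was thus lower in both KO pools than in both HE pools, and it stayed so when the ribosomal RNA loci were left out of the total, at 4.49% and 6.31% against 3.83% and 1.91%. In bulk samples, fewer cells of a type and less RNA per cell cannot be told apart. The 18 goblet cell markers took 0.794% and 0.378% in the HE pools, 0.346% in KO pool 1 and 1.78% in KO pool 2, which is close to the 1.92% and 1.68% of the Epcam+ve samples. The 23 colonocyte markers took 0.768% and 0.618% in the HE pools, 0.298% in KO pool 1 and 0.970% in KO pool 2. KO pool 2 therefore held the most goblet and colonocyte transcripts and the fewest EEC transcripts of the 4 pools. Leukocyte markers made up 0.00188% and 0.00128% in HE cells and 0.00057% and 0.00153% in the KO pools, with none of the 23 above the filter. The part of the goblet and colonocyte transcripts in the results below was not tested, and these intervals cover counting error only.

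**Figure D1:**
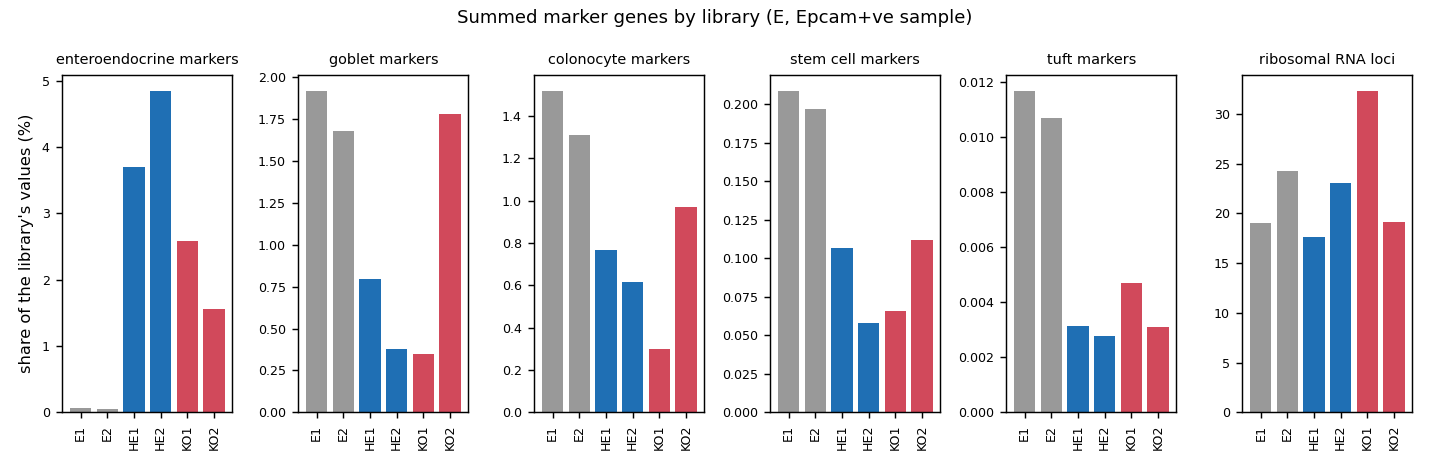
Share of each library's total values (percent, linear axes from 0, 1 panel per list) taken by enteroendocrine, goblet, colonocyte, stem cell and tuft markers and by the ribosomal RNA loci, with 1 bar per library (grey Epcam+ve, blue HE, red KO). The enteroendocrine bars of the KO pools are lower than those of the HE pools, the goblet bar of KO pool 2 (1.78%) is near those of the Epcam+ve samples, and KO pool 1 has the tallest ribosomal RNA bar (32.35%).

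Loss of Olfr78 was set against the remaining copy with a criterion on size and spread and with a model of the error. A gene was past the criterion when its group means lay over 2 average standard deviations (SDs) and over 1.5-fold apart. With 2 pools a group, a gene past the criterion cannot overlap between the groups, so its lack of overlap adds nothing. This criterion has no control of the error rate: 1188 genes (9.99% of those tested) were lower and 384 (3.23%) higher in the KO pools. When the pools were scaled by the median of ratios instead, the split turned to 600 lower (5.05%) and 687 higher (5.78%). All of these 600 were among the 1188 and all of the 384 were among the 687. The median log2 fold change (KO minus HE) of all genes tested was -0.18 on the deposited scale and -0.00 after that scaling, so that values near -0.18 lie at the centre of the distribution. Limma, with its p-values adjusted over all genes tested, called 0 genes at 0.05. The smallest adjusted p was 0.401, 389 genes (3.27%) had an unadjusted p under 0.05 with a lower level and 114 (0.959%) with a higher level in the KO pools, edgeR called 0 and DESeq2 called 8 (0.0673%). With 2 pools against 2, an exact two-sided permutation test cannot go below 0.333. Levels below are therefore described pool by pool, and "past the criterion" is not a statistical call. Without KO pool 1 the limma count was 303, and without KO pool 2 it was 144, each with 1 pool left in the KO group and its spread taken from the HE pools.

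**Figure D2:**
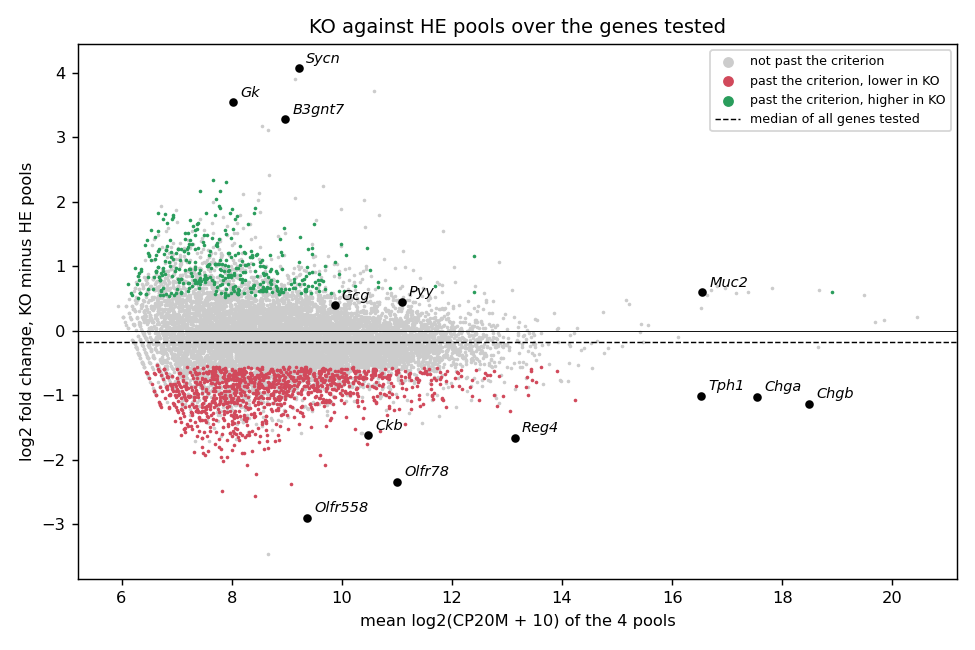
Log2 fold change (KO minus HE, vertical axis) against the mean log2(CP20M + 10) of the 4 pools (horizontal axis), with 1 point for each of the 11892 genes tested, red where lower and green where higher past the criterion, and a dashed line at the median of all genes (-0.18). The points fan out toward low levels, Olfr78 lies at -2.34, and the abundant Tph1, Chga and Chgb lie near -1.0 at the right.

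The targeted gene had the lowest limma p of all genes tested. Olfr78 (ENSMUSG00000043366, GRCm38 chr7:102738511-102759471, minus strand) was at 4822 and 4401 CP20M in HE cells and at 977 and 837 in the KO pools. Both KO pools lay far below both HE pools, and the KO mean was 0.197 of the HE mean. The log2 fold change was -2.34 ± 0.29 (SE), the difference of the means was -18.7 average SDs, and the adjusted p was 0.401 in limma and 0.0035 in DESeq2. Some reads on Olfr78 remained in the KO pools, at 26 and 72 reads. A value per gene does not separate the coding exon from the exons that the cassette leaves in place, and the Epcam+ve samples, from an intact locus, held 135 and 21 CP20M.

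Olfr558, another SCFA receptor gene 26.4 kb from Olfr78 on the opposite strand, was also lower. It was at 1588 and 2014 CP20M in HE cells, 413 in KO pool 1 and 128 in KO pool 2. The groups did not overlap, the log2 fold change was -2.90 ± 0.55, and DESeq2 called it with an adjusted p of 0.0249 (0.931 in limma). Olfr560 lies within the span of Olfr78 on the same strand, and whether its reads came from transcripts of Olfr78 was not tested. It had 1117 and 494 CP20M in HE cells against 151 and 152 in KO cells, which in KO pool 1 is 4 reads. Ffar2, the SCFA receptor best known in L cells and leukocytes, was at 1773 and 1787 CP20M in HE cells, 1728 in KO pool 1 and 570 in KO pool 2. KO pool 1 was level with the HE pools, so the gene was not past the criterion, and its log2 fold change moved from -0.83 to -0.04 without KO pool 2. Ffar3 was at 12 and 27 CP20M in HE cells and had 0 reads in both KO pools, where 3 reads would be 113 and 34.9 CP20M, so that a difference was not detectable at this depth. Of the 4 SCFA receptors, 2 of the 3 tested were past the criterion, both lower, against 9.99% of all genes. The targeted gene Olfr78 is itself among them, so this count is not independent of the design.

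Few of the genes around Olfr78 could be measured. Within 1 Mb of Olfr78 the table lists 140 genes, mostly odorant receptors, of which 55 had a read in any of the 4 pools and 21 were tested. Of these, 3 were past the criterion, against 9.99% of all genes, and all 3 were lower: Olfr558, Olfr560 and Trim68, a gene 51.2 kb away at 1059 and 827 CP20M in HE cells against 676 and 454 in KO cells. Trim68 was no longer past it under median-of-ratios scaling. In 9 of the 21 both KO pools were below both HE pools, against 26.1% of all genes, and with that scaling in 5, against 15.5%. The median log2 fold change of the 21 genes was -0.14, beside -0.18 for all genes, and changed sign to 0.03 with median-of-ratios scaling.

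The EC markers that the study reports as reduced were lower in both KO pools. All 9 of them were tested, and all 9 had both KO pools below both HE pools, against 26.1% of all genes. By the criterion 8 of 9 were lower and 0 higher, against 9.99% and 3.23% of all genes. The study chose this list on these samples, so the count is not independent evidence of its direction. Tac1, which the study also names as an EC marker, overlapped between the groups and is given with the peptide hormones. Tph1, the rate-limiting enzyme of serotonin synthesis in EC cells, had 120152 and 147883 CP20M in HE cells, 90407 in KO pool 1 and 48339 in KO pool 2. Chgb, a granin of secretory granules and the most abundant of them, had 468364 and 630029 CP20M in HE cells, 322506 in KO pool 1 and 191903 in KO pool 2. KO pool 2 was the lowest for both genes, and KO pool 1 lay between it and the HE pools. The log2 fold changes were -1.01 ± 0.50 for Tph1 and -1.13 ± 0.76 for Chgb. Chga, another granin, had 242823 and 304540 against 168049 and 107136 CP20M, and Fev, a transcription factor of serotonergic cells, 1266 and 1894 against 1014 and 489. Of the rest, Gch1, which makes the cofactor of tryptophan hydroxylase, had 1105 and 1507 against 939 and 430 CP20M and missed the criterion.

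The size of the EC marker difference depended on the scale and on KO pool 2. The median log2 fold change of the 9 genes was -1.04, and -0.86 with median-of-ratios scaling. There 2 of 9 were still past the criterion, Ddc and Chga, against 5.05% of all genes. Ddc, the enzyme that completes serotonin synthesis, was at 12715 and 13575 CP20M in HE cells against 7810 and 3951 in KO cells. Without KO pool 2 the median was -0.61 and without KO pool 1 it was -1.56. As a share of reads outside the ribosomal RNA loci, the 9 genes took 5.23% and 7.27% in the HE pools, 4.45% in KO pool 1 and 2.21% in KO pool 2.

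Ckb, the brain-type creatine kinase, differed more evenly between the pools than any EC marker. It was at 2486 and 2507 CP20M in HE cells against 789 and 826 in KO cells, with Epcam+ve levels of 340 and 278. The pools of each group nearly coincided, so the difference of the means was -82.4 average SDs, a distance that rests on a spread between only 2 pools. KO pool 1 held 21 reads of Ckb, at 37.5 CP20M each. Counting error alone is therefore wider than the gap between the KO pools, and the evenness and this distance carry little weight. The log2 fold change was -1.62 ± 0.30 (adjusted p = 0.931 in limma) and ranged from -1.65 to -1.58 when single pools were left out.

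The L cell markers showed no common direction. Pyy, which encodes peptide YY, had 5017 CP20M in HE pool 1 and 681 in HE pool 2, with 2516 and 2568 in the KO pools. Gcg, the precursor of GLP-1, had 1600 and 401 CP20M in HE cells against 639 and 1767 in KO cells. HE pool 1 held several times more of both transcripts than HE pool 2, and the KO pools fell between the HE pools or close to one of them. Insl5, a peptide of distal colon L cells, had 1899 and 441 against 564 and 1139 CP20M, and the transcription factor Etv1 357 and 67 against 113 and 221. None of the 4 was past the criterion, all 4 overlapped between the groups, and their median log2 fold change of 0.20 became -1.05 without HE pool 2 and 1.26 without HE pool 1.

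Of the 5 genes that the study assigns to an undefined state, 3 were higher past the criterion under both scalings. Over all genes the shares were 3.23% on the deposited scale and 5.78% with median-of-ratios scaling. The study named this list from single-cell data, not analysed here. Sycn, which encodes the granule protein syncollin, had 323 and 54 CP20M in HE cells, 1615 in KO pool 1 and 3684 in KO pool 2. Both KO pools were far above both HE pools and above the Epcam+ve samples, which held 1440 and 1110. The log2 fold change was 4.07 ± 0.76, and DESeq2 called the gene with the lowest adjusted p of its 8 calls, 1.51e-05. Mfsd4a, a membrane transporter of the major facilitator family, had 1427 and 561 against 1915 and 2510 CP20M (log2 fold change 1.28 ± 0.45). Tfdp2, a partner of the E2F cell cycle factors, had 530 and 587 against 1089 and 977 CP20M (0.88 ± 0.36). All 3 were thus higher in the KO pools without overlap, as were 8.91% of all genes.

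The other 2 genes of this list are goblet cell genes and followed KO pool 2 alone. Agr2, a protein disulfide isomerase needed for mucin folding, had 8699 and 7921 CP20M in HE cells, 4806 in KO pool 1 and 19301 in KO pool 2. Muc2, the main mucin of the colon, had 111913 and 53833 CP20M in HE cells, 54740 in KO pool 1 and 252362 in KO pool 2, with 267309 and 217519 in the Epcam+ve samples. For both, KO pool 1 was within or below the range of the HE pools, and the log2 fold changes of 0.21 and 0.60 became -0.79 and -0.50 without KO pool 2.

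**Figure D3:**
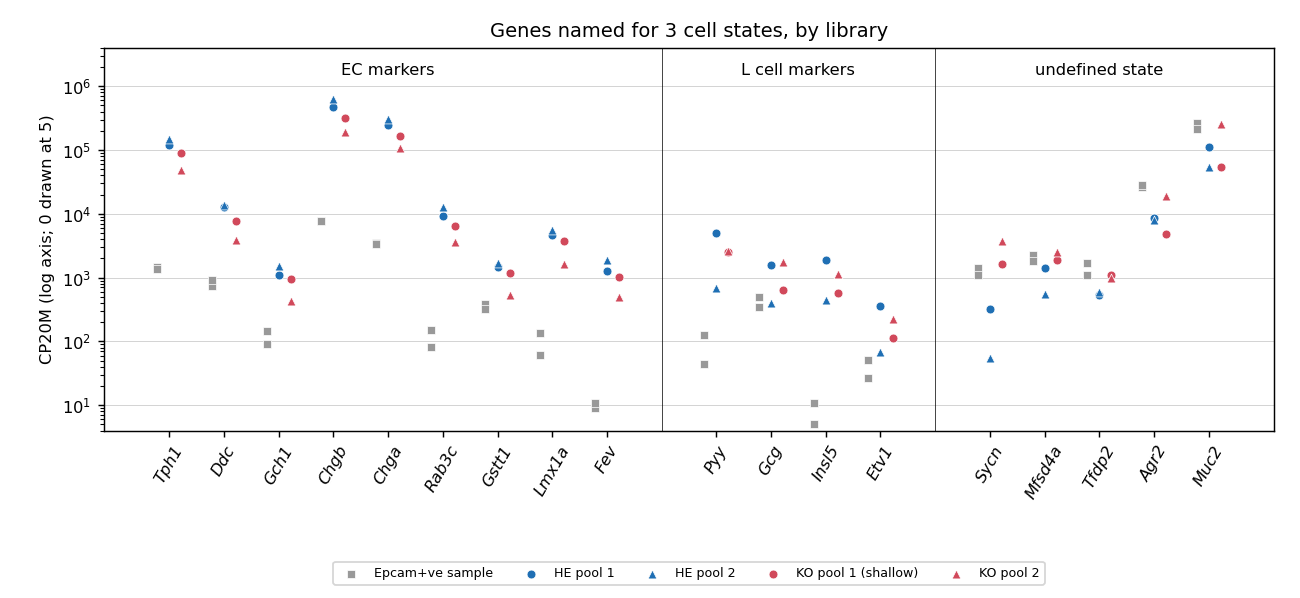
Level (CP20M, log axis, 0 drawn at 5) of the EC, L cell and undefined state genes, with 1 point per library (grey squares Epcam+ve, blue HE, red KO; circles pool 1, triangles pool 2). The EC markers drawn, without Tac1, sit lower in both KO pools, the L cell markers overlap, and Sycn, Mfsd4a and Tfdp2 sit higher in both KO pools.

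A wider set of serotonin genes was also compared, with Tph1, Ddc and Gch1 of the EC list, which the study chose on these samples, among them. Of 18 genes for serotonin synthesis, transport and breakdown, 15 were tested, 7 were lower past the criterion and 1 was higher (against 9.99% and 3.23% of all genes), with a median log2 fold change of -0.79 beside -0.18 for all genes. Without KO pool 2 the median was -0.45. With median-of-ratios scaling 4 were lower and 1 higher, against 5.05% and 5.78% of all genes. Slc18a1, the transporter that loads serotonin into granules, had 11921 and 12855 CP20M in HE cells, 10400 in KO pool 1 and 4497 in KO pool 2. Qdpr, which regenerates tetrahydrobiopterin, had 1991 and 2534 against 1315 and 942 CP20M. Maob, which degrades amines, had 794 and 747 against 526 and 337 CP20M. The difference for Slc18a1 lay mostly in KO pool 2, while Qdpr and Maob were well apart in both. The amino acid transporter subunits Slc3a2 (1013 and 1094 against 714 and 512 CP20M) and Slc7a5 (933 and 894 against 639 and 489) were lower too. Spr, an enzyme of tetrahydrobiopterin synthesis, was the 1 that was higher, at 185 and 161 against 263 and 384 CP20M.

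Granins fill the dense-core granules of EECs, and prohormone convertases cut peptide precursors within them. Of 17 such genes 14 were tested, of which 8 were lower past the criterion (against 9.99% of all genes) and 0 higher. Chga and Chgb of the EC list, which the study chose on these samples, were among the 8. The median log2 fold change of the 14 was -1.0. Under median-of-ratios scaling 5 were still past the criterion (against 5.05% of all genes), and the median was -0.82. It was -0.49 without KO pool 2. Scg5, the chaperone of the convertase PCSK2, had 2164 and 3681 CP20M in HE cells against 1277 and 1023 in KO cells (log2 fold change -1.30 ± 0.35). Ptprn, a membrane protein of dense-core granules, had 5029 and 6428 against 3342 and 1883 CP20M (-1.18 ± 0.35). Pcsk1, a prohormone convertase, had 4937 and 4148 against 2854 and 1767 CP20M (-1.01 ± 0.32). The groups did not overlap for any of the 3, as the criterion requires. Pam, which amidates peptides, had 13463 and 14575 against 9462 and 6206 CP20M, and the carboxypeptidase Cpe 9988 and 9682 against 7434 and 3266.

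The promoters of 3 of these genes are shown because they are the members past the criterion whose first 250 upstream bases hold a cyclic AMP response element, the DNA motif bound by CREB family factors, and because odorant receptors of the nose signal through cyclic AMP. The sequences are from RefSeq (GRCm38.p6), end at the base before the transcription start, and carry the motif in capitals. They lie at chr2:132781392-132781641 (plus strand) for Chgb, chr12:102554691-102554940 (plus strand) for Chga and chr13:75089607-75089856 (plus strand) for Pcsk1.
Chgb: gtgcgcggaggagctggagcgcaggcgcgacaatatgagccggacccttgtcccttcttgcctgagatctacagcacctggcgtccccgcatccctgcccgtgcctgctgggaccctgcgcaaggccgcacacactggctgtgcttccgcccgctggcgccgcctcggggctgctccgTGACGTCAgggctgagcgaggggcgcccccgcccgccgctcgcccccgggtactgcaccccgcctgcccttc
Chga: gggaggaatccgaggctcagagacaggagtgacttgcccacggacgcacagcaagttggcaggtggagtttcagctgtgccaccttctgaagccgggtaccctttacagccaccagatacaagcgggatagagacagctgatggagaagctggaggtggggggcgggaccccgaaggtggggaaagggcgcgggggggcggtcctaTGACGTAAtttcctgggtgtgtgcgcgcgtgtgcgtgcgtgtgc
Pcsk1: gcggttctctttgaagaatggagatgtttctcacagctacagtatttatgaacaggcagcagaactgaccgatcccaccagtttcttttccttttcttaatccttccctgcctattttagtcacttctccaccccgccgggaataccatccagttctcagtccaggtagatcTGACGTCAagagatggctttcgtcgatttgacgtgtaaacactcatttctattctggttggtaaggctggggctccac

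The motif was searched on both strands as TGACGTCA, which is its own reverse complement, and as the variant TGACGTAA (TTACGTCA on the other strand). The first form stood 72 bases upstream in Chgb and 78 in Pcsk1, and the variant 44 bases upstream in Chga. These distances run from the RefSeq start. The annotation that gave the coordinates of Olfr78 starts Chgb at chr2:132781278, ahead of its printed window, and Pcsk1 at chr13:75089826, within its window. For Chgb the upstream position therefore depends on the annotated start. Promoters were matched for 15 of the 17 genes, with 17 promoters in all. TGACGTCA was in 3 of these (17.6%), that of Scg2 included, and in 508 of 32851 promoters of all genes (1.55%). TGACGTAA was in 1 of the 17 (5.88%) and in 147 of all (0.447%). These matches describe the letters in the window and are neither shown binding sites nor a cause of the lower levels.

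Peptide hormones were thinly covered. Of 17 hormone genes, those of L cells included, 6 were tested, with 0 past the criterion in either direction and a median log2 fold change of -0.65. Beside Pyy, Gcg and Insl5 these were Tac1, Sct and Iapp. Tac1, the precursor of substance P and an EC marker in the study, had 4327 and 9708 CP20M in HE cells, 6233 in KO pool 1 and 1302 in KO pool 2. Sct, which encodes secretin, had 7319 and 16336 against 6270 and 4044 CP20M, and the amylin gene Iapp 1773 and 7788 against 2178 and 1070. HE pool 2 held the most of all 3. On the deposited scale the groups were apart for Sct alone, 1 of the 6, against 26.1% of all genes lower without overlap. With median-of-ratios scaling 0 of the 6 were apart, against 15.5% of all genes lower without overlap.

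Among the transcription factors that act in EEC differentiation, 18 of 23 were tested, 4 were lower past the criterion (against 9.99% of all genes) and 0 higher, with a median log2 fold change of -0.79. Lmx1a and Fev of the EC list, which the study chose on these samples, were among the 4. Without KO pool 2 the median was -0.24, beside -0.20 for all genes. Myt1, a zinc finger factor of endocrine cells, had 3556 and 4081 CP20M in HE cells, 2629 in KO pool 1 and 1383 in KO pool 2. Pax6, a homeodomain factor of EEC subtypes, had 553 and 814 against 301 and 349 CP20M. Lmx1a, required for Tph1 expression in EC cells, had 4718 and 5601 against 3755 and 1662 CP20M. All 3 were lower in both KO pools, but under median-of-ratios scaling Pax6 was the 1 factor of the 4 still past the criterion. Rfx6, needed for EEC fate, had 2083 and 2934 CP20M in HE cells, 2028 in KO pool 1 and 918 in KO pool 2, and was not past it. Of the 15 genes of earlier EEC progenitors 10 were tested. Of these 1 was lower past the criterion on the deposited scale and 0 under median-of-ratios scaling, and the median log2 fold change of -0.28 lay near that of all genes and turned to 0.13 without KO pool 2. The 1 gene was Rybp, a Polycomb-associated protein, at 507 and 547 against 413 and 279 CP20M.

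EECs share genes of regulated exocytosis with neurons, and of 38 listed 30 were tested, with 9 lower past the criterion (against 9.99% of all genes), 0 higher and a median log2 fold change of -0.74. Without KO pool 2 this median was -0.17, beside -0.20 for all genes in that setting. Under median-of-ratios scaling 5 remained past the criterion, against 5.05% of all genes. Unc13a, a priming factor for vesicle fusion, had 2935 and 2641 CP20M in HE cells against 1502 and 1011 in KO cells. Rab3a, a vesicle GTPase, had 392 and 281 against 113 and 59 CP20M, and Syp, the vesicle protein synaptophysin, 1301 and 1334 against 864 and 477. The KO pools lay below the HE pools for each, although Rab3a rested on 3 reads in KO pool 1. The vesicle proteins Sv2c (5432 and 4934 against 3905 and 1569 CP20M) and Syt14 (760 and 1321 against 413 and 489) were among the 9. So was Rab3c of the EC list, which the study chose on these samples.

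Of 29 ion channel genes of excitable cells 20 were tested, with 4 lower past the criterion (against 9.99% of all genes), 0 higher and a median log2 fold change of -0.70. The median was -0.43 without KO pool 2. Cacna1h, a T-type calcium channel, had 7767 and 7255 CP20M in HE cells against 4281 and 3254 in KO cells (log2 fold change -1.01 ± 0.28). Kcnip3, a calcium-binding partner of potassium channels, had 564 and 707 against 188 and 105 CP20M (-2.09 ± 0.52). Both differed by more than the spread between pools, as the criterion requires. Kcnip3 rested on 5 reads in KO pool 1, and no read of it was found in the Epcam+ve samples. Kcnh6, a potassium channel, had 2647 and 2014 against 1390 and 802 CP20M, and Cacna1a, a P/Q-type calcium channel, 7733 and 6241 against 5182 and 2789.

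The neuronal cytoskeleton and axonal transport list had 14 of 21 genes tested, of which 5 were lower past the criterion under both scalings (against 9.99% and 5.05% of all genes) and 0 higher. The median log2 fold change was -0.72, and -0.36 without KO pool 2. Nefm, a neurofilament subunit, had 2026 and 2321 CP20M in HE cells against 1127 and 988 in KO cells. Hap1, an adaptor of vesicle transport, had 771 and 614 against 151 and 314 CP20M, and the kinesin Kif5c 656 and 721 against 263 and 326. In each case both KO pools were well below the HE pools, although in KO pool 1 Hap1 rested on 4 reads and Kif5c on 7. Map1b, a microtubule-associated protein, had 15097 and 14856 against 10400 and 5439 CP20M.

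Genes that carry an odorant receptor's signal were mostly below the filter in these cells. Of 18 such genes 7 were tested, with 2 lower past the criterion (against 9.99% of all genes), 0 higher and a median log2 fold change of -0.37. The median was -0.04 without HE pool 1 and turned to 0.02 without KO pool 2. With median-of-ratios scaling 2 of the 7 were lower and 1 higher, against 5.05% and 5.78% of all genes. Reep6, of a family that aids transport of membrane proteins to the cell surface, had 3821 and 4361 CP20M in HE cells against 2141 and 1523 in KO cells. Ric8b, a chaperone of the olfactory-type G protein alpha subunit, had 541 and 707 against 226 and 384 CP20M. Both were lower without overlap, as the criterion requires, and Ric8b rested on 6 reads in KO pool 1. Of 20 nutrient and hormone receptors 8 were tested, with 1 lower and 1 higher under both scalings, against 9.99% and 3.23% of all genes on the deposited scale. Sstr1, a somatostatin receptor, had 622 and 1014 against 301 and 210 CP20M, while Ffar4, a receptor for long-chain fatty acids, had 70 and 41 against 188 and 198 CP20M, which in KO pool 1 is 5 reads.

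The genes with the lowest limma p among those lower past the criterion were of varied function. Besides Olfr78, Ckb and Olfr558 they included Adgrf5, an adhesion G protein-coupled receptor, Prlr, the prolactin receptor, Slco2a1, a prostaglandin transporter, and Hopx, an atypical homeodomain protein. Prlr was at 3763 and 3694 CP20M in HE cells against 1352 and 1383 in KO cells, and 1618 and 1264 in the Epcam+ve samples. Adgrf5 was at 2497 and 2627 against 939 and 605 CP20M, and Slco2a1 at 2566 and 3094 against 1127 and 802. The KO level of Prlr was thus that of the whole epithelium, whereas Adgrf5 (63 and 21 CP20M in the Epcam+ve samples) was still well above it. Reg4, a secreted lectin found in EECs and goblet cells, had 15293 and 16816 CP20M in HE cells against 7472 and 3428 in KO cells (log2 fold change -1.66 ± 0.39), although the goblet cell share was highest in KO pool 2. Gnaz, a G protein alpha subunit, had 771 and 881 against 76 and 221 CP20M, which in KO pool 1 is 2 reads. Igfbp4, an insulin-like growth factor binding protein, had 1266 and 2254 against 601 and 256 CP20M, and Hopx 1796 and 2334 against 676 and 733. All of these had an adjusted p of 0.931 in limma.

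Among the genes higher past the criterion, Gk, Sycn and B3gnt7 had the lowest limma p. Gk, glycerol kinase, was at 104 and 41 CP20M in HE cells against 864 and 884 in KO cells. Both KO pools were also above the 367 and 340 of the Epcam+ve samples, and the log2 fold change of 3.54 ± 0.57 had an adjusted p of 0.000617 in DESeq2 (0.931 in limma). B3gnt7, a glycosyltransferase that builds keratan sulfate and mucin glycans, had 277 and 81 CP20M in HE cells, 864 in KO pool 1 and 2813 in KO pool 2 (log2 fold change 3.28 ± 0.71). Lgals12, a galectin, had 116 and 81 against 451 and 593 CP20M, and Slc41a2, a magnesium transporter, 93 and 54 against 376 and 337. Fut4, a fucosyltransferase, had 208 and 134 against 489 and 884 CP20M, and Tcf7l1, a repressor of Wnt target genes, 150 and 41 against 338 and 593. None of these overlapped between the groups, as the criterion requires. Lgals12, Slc41a2, Fut4 and Tcf7l1 were at 9 to 13 reads in KO pool 1. Grin3a, a glutamate receptor subunit, had 47 and 41 against 188 and 175 CP20M, on 4 and 3 reads in the HE pools and 5 in KO pool 1. The cytochrome P450 Cyp2c68 had 392 and 494 against 977 and 1209 CP20M, and the mitochondrial transfer RNA mt-Ts1 3763 and 3468 against 6571 and 9889. The other 2 higher genes that DESeq2 called were Sval1 (173 and 94 against 489 and 2836 CP20M) and Thbs4, an extracellular matrix protein (231 and 54 against 564 and 2197). KO pool 2 held the larger part of both, and neither was past the criterion on the deposited scale.

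**Figure D4:**
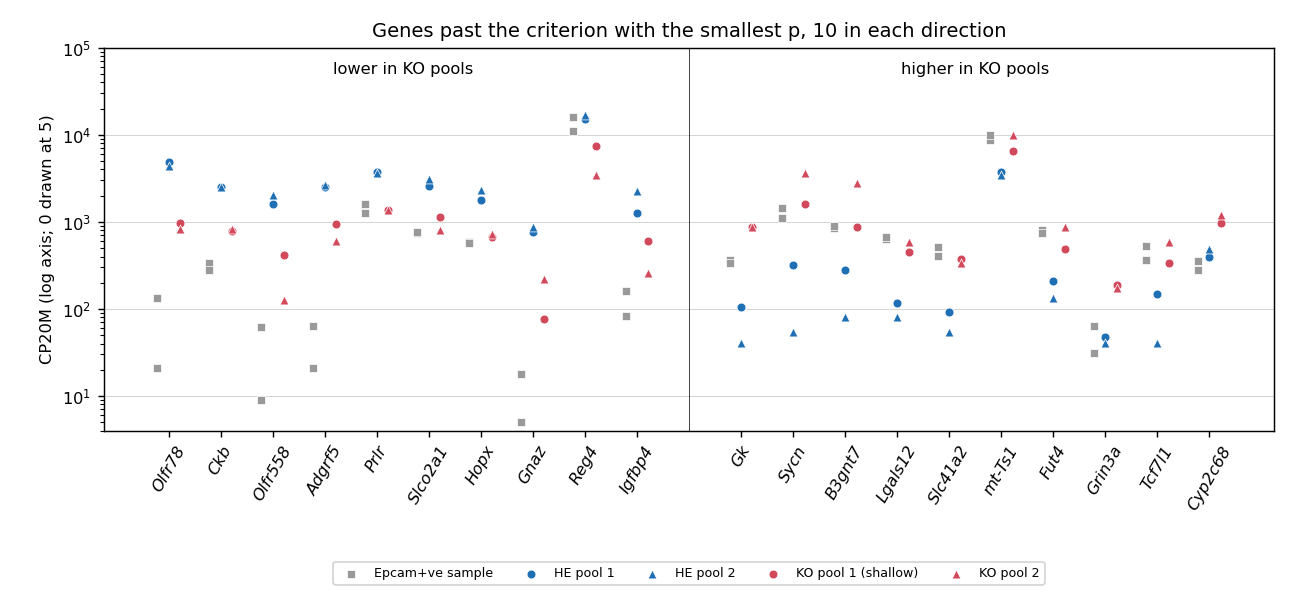
Level (CP20M, log axis, 0 drawn at 5) of the 10 genes in each direction with the lowest limma p among those past the criterion, with 1 point per library (grey squares Epcam+ve, blue HE, red KO; circles pool 1, triangles pool 2). For Ckb and Prlr the points of each group nearly coincide, whereas those of Sycn and B3gnt7 spread widely within each group.

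Cell division genes had a median on the other side of 0 from the EEC genes. Of 24 such genes 18 were tested, 2 were higher past the criterion (against 3.23% of all genes) and 0 lower, and their median log2 fold change was 0.58. Top2a, a topoisomerase of dividing cells, had 1301 and 294 CP20M in HE cells against 1615 and 1592 in KO cells, with Epcam+ve levels of 5373 and 5353. Prc1, a protein of the mitotic spindle midzone, had 311 and 161 against 676 and 407 CP20M. HE pool 2 was the lowest for both, and without HE pool 2 the median of the list turned to -0.35, while without KO pool 2 it was 0.24. Of 30 DNA replication genes 24 were tested, with a median of 0.15. Past the criterion, 4 were higher (Cdt1, Chaf1a, Mcm3 and Mcm5) and 2 lower (Rfc4 and Rfc5), against 3.23% and 9.99% of all genes. With median-of-ratios scaling 7 were higher and 2 lower, against 5.78% and 5.05%. The median turned to -0.27 with a filter of 400 CP20M in all 4 pools. Cdt1, a licensing factor, had 93 and 67 against 376 and 186 CP20M, and Rfc5, a subunit of the clamp loader, 668 and 641 against 338 and 407.

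Mitochondrially encoded genes were higher where they were past the criterion. Of the 13 tested, 4 were higher past the criterion (against 3.23% of all genes) and 0 lower, with a median log2 fold change of 0.67. Among them mt-Co2 had 553 and 747 CP20M in HE cells against 1465 and 1244 in KO cells, and mt-Atp6 956 and 1147 against 2178 and 1883. All mitochondrial transcripts, ribosomal RNA included, took 11.06% and 9.92% of the reads in the HE pools, 12.89% in KO pool 1 and 20.52% in KO pool 2. The 13 genes alone took 6.31% and 4.12% in the HE pools, 4.94% in KO pool 1 and 12.8% in KO pool 2. For these genes KO pool 1 thus lay between the HE pools, and without KO pool 2 their median was -0.01. The 47 cytosolic ribosomal protein genes had a median of 0.02 with 0 past the criterion, and the 24 tested heat shock and immediate early genes a median of -0.25, also with 0. Without KO pool 2 these medians turned to -0.45 and 0.21. Of 6 tested interferon-stimulated genes (of 18), 2 were lower past the criterion, against 9.99% of all genes. Ifit1, which binds viral RNA, had 208 and 254 against 76 and 70 CP20M, of which 2 reads were in KO pool 1. Irf7, a factor that induces interferon, had 553 and 534 against 226 and 384 CP20M, with 6 reads in KO pool 1. The 5 tested nuclear noncoding RNAs (of 6) had a median of -0.24 and 0 past the criterion.

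Markers of other epithelial cells gave few differences. Of 15 tested goblet markers (of 18), 1 was higher and 0 were lower past the criterion, against 3.23% and 9.99% of all genes. The higher gene was Creb3l4, a transcription factor of secretory cells, at 116 and 121 against 226 and 349 CP20M. The median log2 fold change of 0.45 became 1.59 without KO pool 1 and -0.81 without KO pool 2. Of 20 tested colonocyte markers (of 23) 1 was lower, against 9.99% of all genes. This was Krt20, at 24878 and 31364 against 14755 and 11876 CP20M. The 11 tested stem cell markers (of 14) had 0 past the criterion in either direction. The 3 tested tuft cell markers (of 16) likewise had 0. Of stromal and endothelial markers 1 was tested, and of enteric glia and neuron markers 1, Ret, which was lower at 1462 and 1201 against 864 and 581 CP20M.

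**Figure D5:**
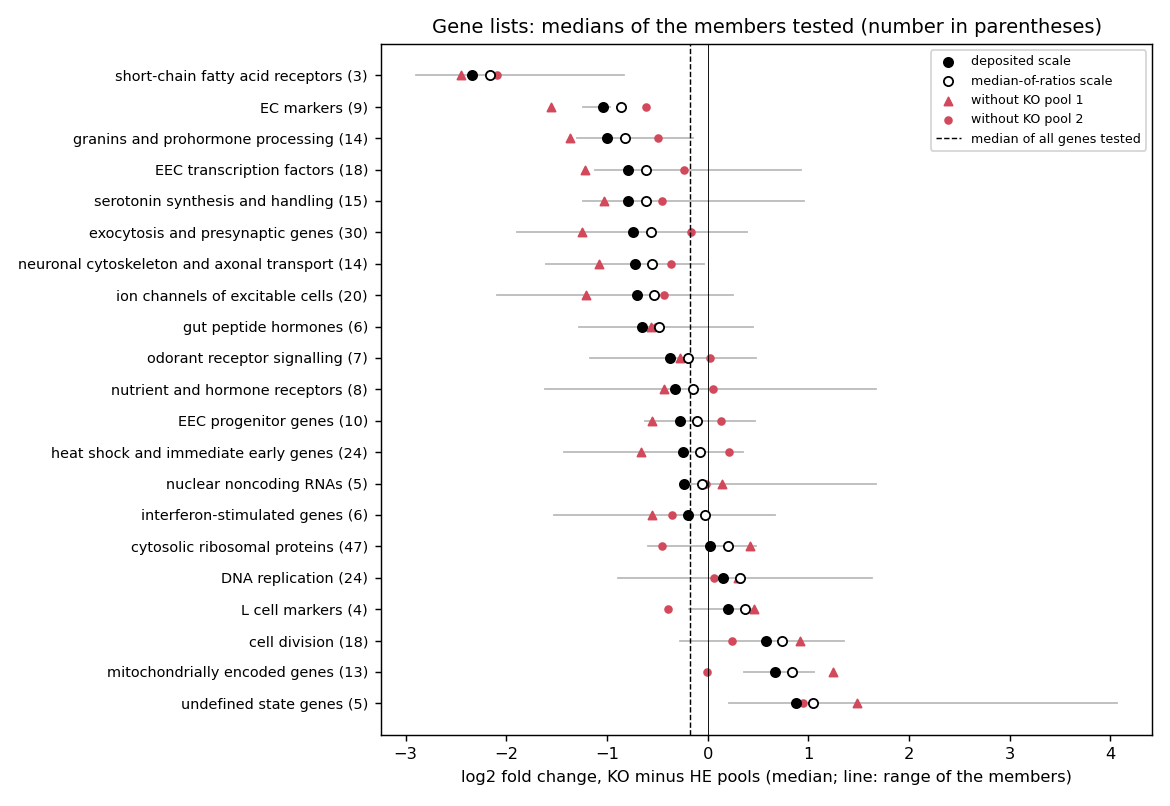
Median log2 fold change (KO minus HE, horizontal axis) of the tested members of each gene list, with their number in parentheses, on the deposited scale (filled black), with median-of-ratios scaling (open), without KO pool 1 (red triangles) and without KO pool 2 (red circles). Grey lines span the members and the dashed line marks the median of all genes (-0.18). The SCFA receptor list, which includes the targeted Olfr78, and the EC and granin lists lie lowest. The EC, granin and exocytosis lists lie nearer to 0 without KO pool 2.

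Below the filter, 16 genes had at least 5 reads in both HE pools and 0 in both KO pools, of the 26486 genes with a read in any of the 4 pools. The largest difference was that of Klhdc1, with 9 and 13 reads in the HE pools, at least 5.1-fold lower in the KO pools when these are set to 3 reads over the group. Conversely 8 genes had 0 reads in both HE pools and at least 3 in both KO pools. Azgp1, a secreted glycoprotein, led with 11 and 5 reads in the KO pools, at least 7.66-fold higher.

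Unsorted colon crypts of the same line, from 2 WT and 5 KO mice, gave another view of the same genes. Olfr78 was at 88 and 111 CP20M in the WT crypts, and in the KO crypts the lowest was 7, the median 27 and the highest 42, with a log2 fold change of -1.71 ± 0.38 and an adjusted p of 0.0199 in limma. Olfr558 was at 56 and 32 CP20M in the WT crypts and between 5 and 17 in the KO crypts, and was too low there to be tested. For both receptors the KO crypts lay below the WT crypts without overlap. Tph1 was at 2530 and 1365 CP20M in the WT crypts and 1112 to 2281 (median 1393) in the KO crypts, with an adjusted p of 0.612. Ckb was at 224 and 175 against 182 to 396 (median 217), with an adjusted p of 0.439. Tph1 and Ckb overlapped between the groups. Among the EC markers Chgb had 7646 and 4210 CP20M in the WT crypts and 2784 to 5109 (median 3759) in the KO crypts (log2 fold change -0.61 ± 0.23, adjusted p = 0.124 in limma). Gstt1, a glutathione transferase, was the 1 EC marker whose crypts did not overlap, at 443 and 421 against 247 to 410 (median 308), with a log2 fold change of -0.42 ± 0.18 and an adjusted p of 0.153. Fev was too low to be tested, and of the other 8 EC markers 0 had an adjusted p under 0.05 and 2 an unadjusted p under 0.05 (Chgb and Gstt1), while limma called 1177 of the 15975 genes tested in the crypts. These crypts hold all epithelial cells and their controls carry 2 intact alleles, so the comparison differs from that of the sorted cells in both.

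A pseudogene outside the locus separated the genotypes more widely than Olfr78 did in the crypts. Gm8979 (chr7:106076751-106084046, minus strand, 3.32 Mb from Olfr78) was at 9603 and 9412 CP20M in the WT crypts and 62 to 173 in the KO crypts (log2 fold change -6.40 ± 0.30, adjusted p = 6.61e-07 in limma). In the sorted cells it was at 2992 and 601 CP20M in HE cells, 76 and 163 in the KO pools, and 15026 and 12287 in the WT Epcam+ve samples. DESeq2 called it lower in the KO pools with an adjusted p of 0.00747, but with HE pool 1 far above HE pool 2 it was not past the criterion. It was chosen for these DESeq2 results, and the knockout and sequence linked to the targeted allele cannot be told apart in these groups.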

How the data were processed

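Bulk RNA-seq was done on sorted pools (Ovation Solo libraries from miRNeasy-extracted RNA). The authors aligned reads with STAR to GRCm38/mm10, counted them per gene with HTSeq on Ensembl 90, and deposited counts per 20000000, a scaled signal rounded to whole numbers. The deposited crypt columns, treated as a rounded score, are on the same scale. Whole reads were recovered from the steps of the sorted columns for 99.9% to 100% of values. A separate table of crypts labelled eControl and eKnockout was not used, and no column lacked a sample. The pools' depths (532704 to 1738139 reads) set the counting error.

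Genes above 40 (2 CPM) in all 4 pools were tested with limma 3.58.1 (R 4.3.3) on log2(value + 10), so that fold changes of low genes are understated, with Benjamini-Hochberg adjustment. The criterion, from the methods, is a difference of means over 2 average SDs with a log2 ratio beyond 0.585. EdgeR 4.0.16 and DESeq2 1.42.0 on recovered reads, TMM and median-of-ratios scaling, other filters, pseudocounts and left-out pools were alternatives. The main limma fit, the criterion, edgeR and DESeq2 were tested on simulated reads. Other scalings, filters and pseudocounts, left-out pools, the crypt fit and the motif search were not. The simulated spread was set alike for all genes and was not fitted to these pools. The simulation therefore checked the code and says nothing about error rates or power in these data. Named were Olfr78, Ckb and Tph1, genes the study names for this comparison, the 10 genes a direction with the lowest limma p among those past the criterion, the 3 such per list, and genes called after adjustment. Further list members, Gm8979 and genes at 0 reads were named after their values were seen. Members and lists were chosen with earlier results of these data known. Pools of 2 mice are the replicates, and pool numbers are only names.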

Additional observations from a re-analysis of the deposited data

How the results depend on the processing

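Of 73 named genes tested, 45 of the 46 with a negative and 22 of the 27 with a positive log2 fold change kept that sign in every alternative run. Etv1 changed to -0.04 with a pseudocount of 40. Leaving out single pools moved Pyy from -0.98 to 1.88, Gcg from -0.58 to 1.39, Insl5 from -1.23 to 0.85, Etv1 from -1.12 to 1.13, Agr2 from -0.79 to 1.22 and Muc2 from -0.50 to 1.70. The counts of genes past the criterion, lower and higher, were 626 and 664 with TMM scaling, 600 and 687 with median-of-ratios scaling, 772 and 533 without the ribosomal RNA loci (chosen after seeing the data), 1861 and 608 with 40 CP20M in 2 of 4 pools, 393 and 43 with 400 CP20M in all, and 1597 and 624 with the population SD. The cause was not tested, apart from the number of genes tested under other filters (15961 and 5094). Pools could not be left out of the criterion, since 1 pool has no SD. Limma called 0 genes, DESeq2 8, and limma between 0 and 303 with 1 pool left out: 4 without HE pool 1, 0 without HE pool 2, 303 without KO pool 1 and 144 without KO pool 2. List medians without single pools ran from -1.56 to -0.61 for EC markers, -1.05 to 1.26 for L cell markers and 0.62 to 1.48 for undefined state genes. Same-numbered pools did not deviate together (correlation -0.244). A replicate block gave 804 lower and 295 higher by the criterion and 0 limma calls, and crossed pairs, added after seeing the data, 1013, 316 and 85. Depth in KO pool 1 limits 722 of the 1188 lower and 212 of the 384 higher genes, which had fewer than 10 reads there.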
